A study of Caenorhabditis elegans with 24 samples.

Results

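The genes described here kept their mean share of the messenger RNA counts of Caenorhabditis elegans embryos within a 1.6-fold range over all stages sampled. They were chosen by their measured values. Each had a mean of at least 100 CPM at its lowest stage, a highest stage mean at most 1.6 times its lowest, and no count above 500 in any library. CPM is the count of a gene per 1e6 counts of worm genes in its library, and a stage mean is the mean of the 3 libraries of a stage. Of 20687 worm genes in the count table, 36 met all 3 limits (0.174%). Their steadiness is therefore a description of how they were chosen and carries no test.

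Embryos of the strain N2, with no treatment or mutation named in the labels, were taken out of cut adults and collected at 60, 120, 180 and 225 min and then at 270, 330, 410 and 500 min after the 4-cell stage. Each of the 8 stages had 3 samples of 50 whole embryos. Messenger RNA was counted by CEL-Seq, which reads the 3′ end of each transcript, so the counts do not scale with transcript length. The labels do not say whether the samples of a stage came from separate collections, and replicates 1 and 2 of a stage carry the same running sample number. The p-values below therefore measure the spread between these samples, which may be technical.

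An embryo passes in these stages from cell division through gastrulation and elongation, and most transcripts come and go with one of those phases. Genes that every cell needs, such as those for vesicle coats, the respiratory chain and protein synthesis, are often called housekeeping genes. Some of them serve as internal standards for quantitative PCR, which assumes that their share of the RNA does not move. In whole embryos a transcript kept at a constant share can still be redistributed between tissues, and fewer cells expressing it cannot be told apart from less RNA per cell.

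Worm counts per library ranged from 172620 to 977908, with a median of 423142, so 1 count stood for 1.02 to 5.79 CPM. ERCC spike-ins (RNA standards added to the sample) made up 2.36 to 10.2% of all counts. The summed yolk protein genes vit-1 to vit-6, markers of adult tissue carried along with embryos, ranged from 0 to 1305 CPM per library, and 4 libraries held 759 CPM or more. Leaving out those 4, an alternative chosen after the data were seen, gave 34 genes by the same limits, 26 of them among the 36. The part of carried adult RNA in the choice was not tested.

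Most genes fell short on level. A lowest stage mean of 100 CPM was reached by 862 genes, of which 480 also had no count above 500. The 36 were 7.5% of those 480. The other 444 missed only the limit on the ratio of highest to lowest stage mean. Their median ratio was 2.51 and the largest among the 480 was 7.09. The limit on the count removed 26 further genes that met the limits on level and ratio. No value in the table exceeded 1023, and large values are compressed if counts have such a ceiling.

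The borders of the set were not marked by a gap. Nearest inside the limit on the ratio were mel-26 at 1.59 and rab-14 at 1.58, and nearest outside were cyk-3, which lay just above 1.6, and zer-1 at 1.604. Nearest inside the limit on the level were mel-26, with a lowest stage mean of 100.1 CPM, and gid-1 with 103 CPM, and nearest outside were stam-1 with 96.1 CPM and slrp-1 with 95.98 CPM. Nearest inside the limit on the count were cyc-2.1, with a highest count of 488, and cox-5B with 474, and nearest outside were kin-19 with 529 and sqd-1 with 544. Between 50 and 100 CPM, 23 more genes met the limits on ratio and count.

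The steadiest of the 36 was flwr-1 (F20D1.1, chromosome X, 14968900 to 14970271, WBcel235), the worm homologue of Drosophila Flower, a membrane protein of synaptic vesicles. Its libraries read 307, 265 and 299 CPM at 60 min, 324, 271 and 321 CPM at 120 min, 306, 284 and 350 CPM at 180 min and 328, 321 and 319 CPM at 225 min (replicates 1, 2 and 3). They read 297, 294 and 245 CPM at 270 min, 310.5, 218 and 303 CPM at 330 min, 269, 238 and 271 CPM at 410 min and 347, 259 and 241 CPM at 500 min. The 225 min libraries all lay above those of 60, 270, 330 and 410 min and overlapped those of 120, 180 and 500 min. The lowest and highest single values, 218 and 350 CPM, were 1.602 times apart. Its highest stage mean, 322.5 ± 4.91 CPM at 225 min, was 1.25 times its lowest, 259 ± 18.5 CPM at 410 min (SD, n = 3 libraries per stage here and below).

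**Figure D1:**
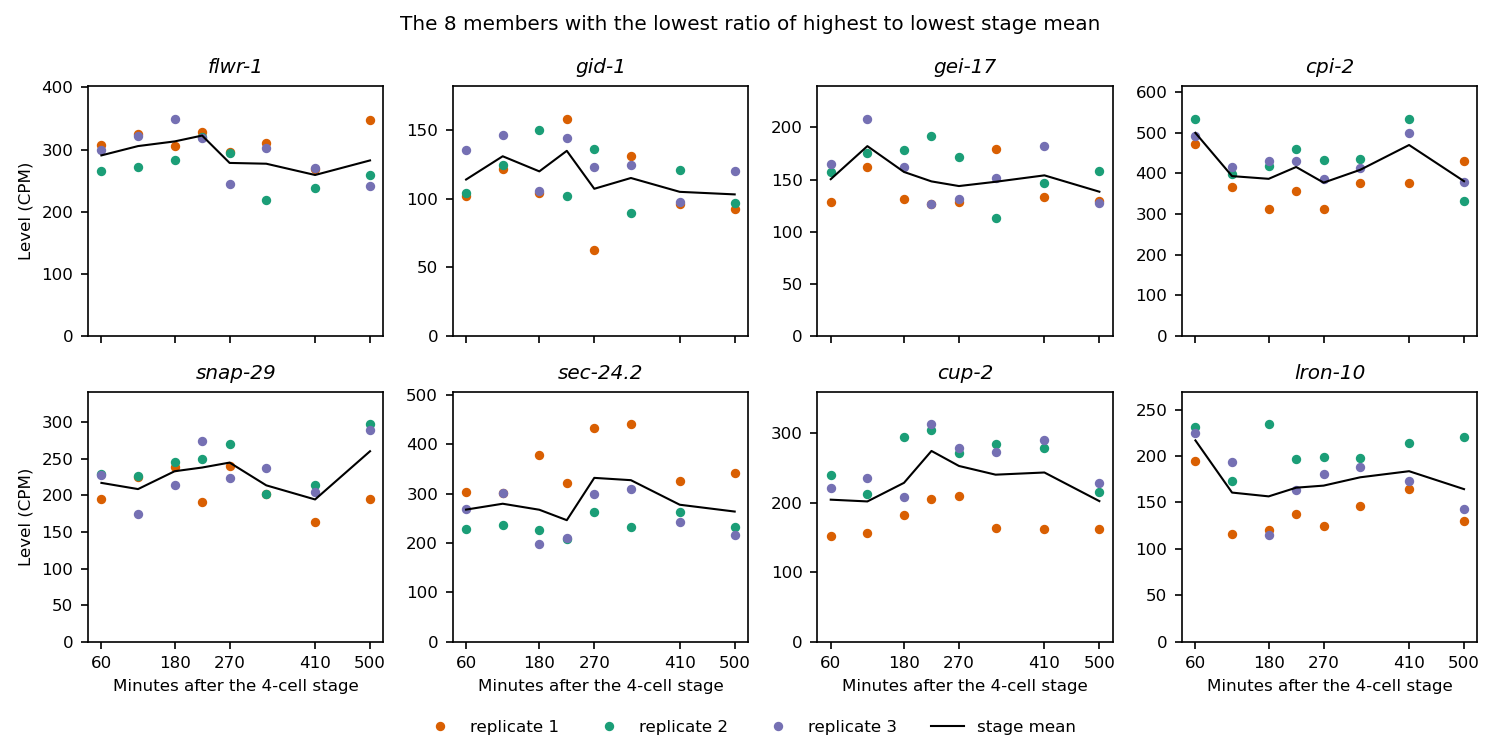
Level in CPM (y axis, from 0) against minutes after the 4-cell stage (x axis) for the 8 members with the lowest ratio of highest to lowest stage mean; points are single libraries coloured by replicate number and the line joins the stage means. The stage means of flwr-1 stay between 259 and 322.5 CPM, while in sec-24.2 the replicate 1 points lie above the others and in cup-2 below them.

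Next came gid-1, named for the yeast GID ubiquitin ligase complex, with a ratio of 1.31. It had the lowest mean level of the 36, 116.5 CPM over the 8 stages, with a highest mean of 135 ± 29.2 CPM at 225 min and a lowest of 103 ± 15.01 CPM at 500 min. The SUMO ligase gene gei-17, a PIAS homologue, had a ratio of 1.32, with 182 ± 23.8 CPM at 120 min and 138 ± 16.9 CPM at 500 min. Both overlap another gene in the annotation. The cystatin gene cpi-2, an inhibitor of cysteine proteases, had a ratio of 1.325 at a higher level, with 473, 535 and 491 CPM at 60 min against 312, 432 and 386 CPM at 270 min. Its 60 min libraries all lay above its 270 min libraries. The SNARE gene snap-29, whose product acts in membrane fusion, had 260.5 ± 57.3 CPM at 500 min and 194.5 ± 26.5 CPM at 410 min (ratio 1.34).

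By what they encode, 12 of the 36 belonged to the secretory and endosomal route, 9 to mitochondria and 6 to translation, protein modification and chromatin. The other 9, some of them known here only by a sequence name, were not assigned to any of these. The grouping was made after the members were known. In the secretory and endosomal group the median of the mean levels was 252 CPM and the ratios ran from 1.25 to 1.58. In the mitochondrial group they ran from 1.46 to 1.58 around a median level of 192.5 CPM.

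At the start of the secretory route stood cup-2, a Derlin that moves misfolded proteins out of the endoplasmic reticulum, and ostf-4, a subunit of the enzyme that attaches sugar chains to new proteins, only 35 codons long. The gene cup-2 had 274 ± 59.7 CPM at 225 min and 202 ± 40.8 CPM at 120 min. For ostf-4 the highest mean was 301.5 ± 90.4 CPM at 330 min and the lowest 204 ± 72.7 CPM at 500 min. Cargo leaves this compartment in COPII coats and returns in COPI coats, and the p24 proteins select it. In this step sec-24.2, a COPII cargo adaptor, had a ratio of 1.35, and the p24 genes tmed-4 and tmed-10 had 1.43 and 1.54. The COPI zeta subunit gene copz-1 had the highest level of the group, with 458, 542 and 516 CPM at 120 min against 269, 400.0 and 322 CPM at 410 min. Those libraries did not overlap (ratio 1.53).

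Later steps of the route were represented by endocytic genes. The gene dpy-23, which encodes the mu subunit of the AP2 adaptor, had 306 ± 48.4 CPM at 120 min and 219 ± 73.4 CPM at 410 min. The clathrin light chain gene clic-1 (chromosome V, 7733624 to 7734911) was highest at 500 min, with 357, 406 and 421 CPM, and lowest at 180 min, with 258, 282 and 218 CPM. These sets of libraries did not overlap. The gene unc-32, which encodes the a subunit of the proton pump that acidifies vesicles, had 316 ± 53.02 CPM at 180 min and 218 ± 39.96 CPM at 60 min. The small GTPase gene rab-14 had 200 ± 32.8 CPM at 120 min and 126 ± 29.2 CPM at 60 min. Of the 12 genes of this route, 5 had their lowest mean at 410 min on the CPM scale, as did 11.3% of the 444 genes that missed only the limit on the ratio, and 0 of the 12 with TMM.

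The mitochondrial members ran through the respiratory chain. Complex I was represented by ndua-7 and nduc-2, complex III by the Rieske protein gene isp-1 and the core protein gene ucr-2.1, and complex IV by cox-5B and cox-6C. The gene cyc-2.1 encodes cytochrome c, which carries electrons from complex III to complex IV. The remaining members were the import receptor gene tomm-22 and the mitochondrial ribosomal protein gene mrps-11. The highest mean levels of all 36 belonged to cox-5B, at 555 CPM over the 8 stages, and cyc-2.1, at 538.5 CPM. The next highest were F36A2.7 at 502 CPM, xbx-6 at 439.5 CPM and cpi-2 at 416 CPM.

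In 5 of the 9 mitochondrial members the lowest mean was at 225 min, where the median of the 9 lay 0.24 below their own mean over the stages on the log2 scale. It was at 225 min in 5 of the 9 with TMM and with DESeq2 size factors too, and in 3 with spike-ins. Of the 444 genes that missed only the limit on the ratio, 5.63% were lowest there on the CPM scale. That share was 10.1% with TMM, 13.7% with DESeq2 size factors and 6.31% with spike-ins. The gene cyc-2.1 (chromosome IV, 4747895 to 4749012) had 811, 556.5 and 564 CPM at 500 min against 371, 449 and 402 CPM at 225 min, with no overlap. The gene cox-5B had 730, 704.5 and 706 CPM at 120 min against 436, 455 and 469.5 CPM at 225 min, also with no overlap. The gene isp-1 had 486, 460 and 440 CPM at 500 min and 303, 273 and 341 CPM at 225 min. The 4 mitochondrial members lowest at other stages were nduc-2 and ucr-2.1 of the respiratory chain, tomm-22 and mrps-11. The gene nduc-2 had 237 ± 14.6 CPM at 60 min and 152 ± 5.98 CPM at 180 min, and ucr-2.1 had 221 ± 38.4 CPM at 120 min and 146 ± 36.6 CPM at 60 min. The ratios of tomm-22 and mrps-11 were 1.46 and 1.52, both with their highest mean at 180 min. Summed over the 9 genes, the stage means were 2895 CPM at 60 min, 2271 CPM at 225 min and 2962 CPM at 500 min. A wider list for oxidative phosphorylation held 23 genes that reached the level limit and were not members. On the CPM scale 5 of the 23 were lowest at 225 min and 6 at 120 min. These counts were 7 and 6 with TMM, 9 and 4 with DESeq2 size factors, and 5 and 10 with spike-ins. At 225 min the median of the 23 lay 0.21 below their own mean on the log2 scale (CPM). Nothing particular to the members is read from the low at 225 min.

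The genes of translation, protein modification and chromatin differed in where they were highest, with 6 different stages among 6 genes. The initiation factor gene eif-1, which acts in choosing the start codon, had 374 ± 16.9 CPM at 60 min and 268 ± 25.8 CPM at 500 min. The gene epc-1, which encodes an Enhancer of Polycomb protein of a histone acetyltransferase complex, had 440 ± 29.2 CPM at 270 min and 305 ± 54.1 CPM at 500 min. The gene wdr-20, whose product activates the deubiquitinase USP-46, had 219 ± 39.1 CPM at 180 min and 142 ± 25.8 CPM at 120 min. The widest ratio of all was that of mel-26, an adaptor that brings the katanin subunit MEI-1 to a cullin ubiquitin ligase after meiosis. It had 179, 124 and 176 CPM at 330 min against 102, 96.5 and 101.3 CPM at 60 min. Of these 6 genes, 4 had their lowest mean at 500 min on the CPM scale, as did 42.1% of the 444, and 0 with TMM.

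Of the 9 remaining genes, 7 had their highest mean at 60 min on the CPM scale, as did 39.4% of the 444. With TMM 2 of the 9 did, F36A2.7 and xbx-6. Among them were cpi-2, lron-10, named for its extracellular leucine-rich repeats, the short-chain dehydrogenase gene dhs-24, xbx-6 and F36A2.7. The gene F36A2.7 had 624 ± 48.4 CPM at 60 min and 448 ± 36.4 CPM at 410 min. The gene xbx-6 had 556 ± 78.9 CPM at 60 min and 366 ± 45.3 CPM at 500 min. The gene lron-10 had 217 ± 19.3 CPM at 60 min and 156.5 ± 67.3 CPM at 180 min (ratio 1.39). The smaller genes of the group ran from 130 CPM (dhs-24) and 137 CPM (F21D5.7) to 180 CPM (Y38E10A.24) in mean level, with ratios of 1.51, 1.47 and 1.53. The 2 genes not highest at 60 min were C14C10.5, with 257 ± 19.7 CPM at 120 min and 175 ± 19.9 CPM at 410 min, and cfz-2. The gene cfz-2 encodes a Wnt receptor of the Frizzled family and had 312 ± 43.4 CPM at 410 min and 207.5 ± 43.8 CPM at 60 min.

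**Figure D2:**
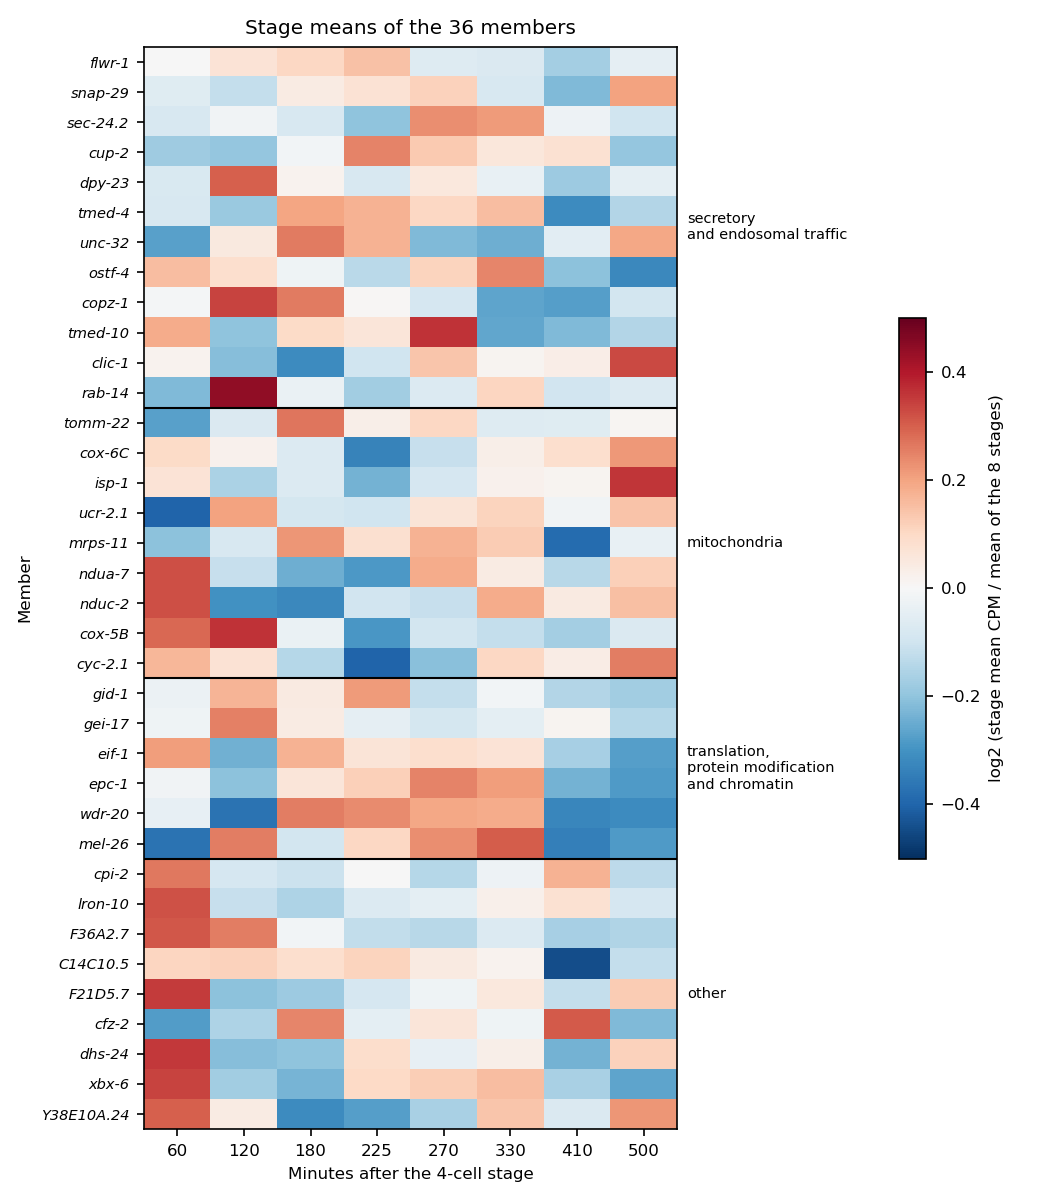
Stage means of the 36 members (rows, grouped by what they encode) at the 8 stages (columns, minutes after the 4-cell stage) as log2 of the CPM stage mean over the mean of the 8 stages, from blue (below the mean) to red (above it). Blue cells gather at 225 min among the mitochondrial genes and at 410 and 500 min among the genes of translation, protein modification and chromatin, and no cell reaches a log2 of 0.5 in either direction.

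On the CPM scale the highest means of the 36 were spread over the stages. They were at 60 min in 10 genes, at 120 min in 7 genes, and at 180 min in 5. Later ones numbered 3 each at 225 and 270 min, 2 at 330 min, only 1 at 410 min and 5 at 500 min. Lowest means fell most often at 410 min, in 9 genes. On this scale the 444 genes that missed only the limit on the ratio were more lopsided, with 39.4% highest at 60 min and 42.1% lowest at 500 min. The rule limited the same stage means, so nothing is read from that difference. For the highest means it reversed with other scalings. With TMM 22 of the 36 (61.11%) were highest at 500 min, and 31 (86.11%) were with DESeq2 size factors. Of the 444, 80 and 95 were highest there. Their largest shares were 34.46% with TMM and 40.09% with DESeq2 size factors, both at 60 min. Together the 36 held 0.943 ± 0.0492% of the worm counts (SD, n = 24 libraries), from 0.838 to 1.03%.

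The spread between the 3 libraries of a stage was not itself limited, but a large spread also moves the stage means that were. It was smaller than in most tested genes. The median coefficient of variation within a stage was 12.97% for the 36, against 14.7% for the 444 and 28.4% for all 8279 tested genes, most of which had fewer counts. It ran from 7.41% in epc-1 to 26.99% in ndua-7. Counting error alone would give a median of 10.2% in a single library. Across the stages, the coefficient of variation of the stage means had a median of 13.6%, each stage mean averaging 3 libraries. Over all 24 libraries, which includes the differences between stages that the rule limited, the highest value exceeded the lowest by 1.602 to 3.26 times (median 2.12). The widest was mel-26, with 183 CPM in replicate 3 of 120 min and 56.02 CPM in replicate 3 of 410 min, where it had 12 counts.

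Differences between stages were also tested. In an edgeR quasi-likelihood F test of stage as a whole, 15 of the 36 passed a Benjamini-Hochberg adjusted p of 0.05, where 91.6% of all tested genes did. The limits used the same stage means, so nothing is read from the difference. With the replicate number as a block 24 of the 36 passed, where 94.3% of all tested genes did. The count was 7 without replicate 2 and 8 without replicate 3, where 84.2% and 81.7% of all tested genes passed. It was 26 by DESeq2's likelihood ratio test (89.5% of all tested genes). With either spike-in scaling it was 0, where 72.6% and 70.2% of all tested genes passed. Lowest were clic-1 (edgeR adjusted p = 5.56e-06), isp-1 (adjusted p = 2.63e-05) and cyc-2.1 (adjusted p = 5.46e-05), and highest were eif-1 (adjusted p = 0.698), gid-1 (adjusted p = 0.674) and ostf-4 (adjusted p = 0.618). The libraries of a gene's highest stage all lay above those of its lowest stage in 25 of the 36, and in 97.2% of all tested genes. Between the ends of the series, 4 genes had all 500 min libraries above all 60 min libraries, namely unc-32, isp-1, ucr-2.1 and clic-1 (39.9% of all tested genes). In 5 they all lay below, namely cpi-2, eif-1, xbx-6, tmed-10 and cox-5B (40.5% of all tested genes), and in 27 the 2 sets of libraries overlapped.

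Few complexes were steady as a whole. Of 10 genes for COPI and COPII coats and cargo receptors that reached the level limit, 4 were members, while copa-1, the COPI alpha subunit, had a ratio of 6.33 with 1126 CPM at 225 min and 178 CPM at 60 min. In the list for clathrin and its adaptors, 2 of 6 such genes were members. Among 15 subunits of the vacuolar proton pump at the level limit, 10 exceeded the limit on the count and unc-32 was the 1 member. On the CPM scale 14 of the 15 were highest at 500 min, as were 6.31% of the 444 genes that missed only the limit on the ratio. The gene vha-2 also lay within the ratio limit, at 1.53, but exceeded the limit on the count. Of 28 nuclear genes of oxidative phosphorylation on a list that is not complete (it lacks the members ndua-7 and nduc-2), 5 were members and 8 lay within the ratio limit. The 23 that were not members had their highest mean at 60 min in 18 cases on the CPM scale (78.3%), as did 39.4% of the 444. With TMM 11 of the 23 did, and 9 did with DESeq2 size factors and with spike-ins. In the time course test 17 of 22 tested coat genes, 17 of 21 clathrin genes, 18 of 19 pump genes and 39 of 42 oxidative phosphorylation genes passed. Among all tested genes 91.6% passed, so nothing particular to these lists is read from the counts. They have no direction, since the test covers all stages. No member came from the 5 proteasome genes or the 18 spliceosome genes at this level, nor from 18 translation factor genes other than eif-1. The limit on the count alone barred 2, 11 and 7 of these, which left 3, 7 and 11. It also barred 3 of the 10 coat genes and 8 of the 28 oxidative phosphorylation genes. Members were 7.5% of all genes that met the limits on level and count.

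None of the genes in common use as standards for quantitative PCR was among the 36. Of 16 listed, 7 reached the level limit, and 5 of those exceeded the limit on the count, so only 2 could have been members. The lowest ratio among the 7 was 2.41, for act-1, an actin gene with 1357 CPM at 60 min and 563 CPM at 180 min. Ratios of other listed genes were 2.05 for iscu-1, 2.45 for eif-3.C, 2.56 for pgk-1, 2.715 for cdc-42, 2.75 for idhg-1, 2.78 for gpd-2 and 3.05 for act-2. They were 3.56 for gpd-3, 3.58 for pmp-3, 3.83 for tba-1, 4.21 for tbb-2, 4.66 for rbd-1, 5.64 for ama-1 and 6.185 for mdh-1. Both iscu-1, with a mean of 36.5 CPM, and cdc-42, with 48.01 CPM, were scarce, where counting error is larger. For csq-1 no ratio is given, since it had 0 counts at 120 min, which allows up to 5.13 to 17.4 CPM per library, and 105 CPM at 500 min. The actin, tubulin and glyceraldehyde phosphate dehydrogenase genes have close copies, so their separate values are uncertain. The median ratio was 2.76 for all 862 genes at the level limit and 8.94 for all tested genes.

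The steadiness holds for a share of the library total and depends on that choice. TMM scaling takes a trimmed mean of gene ratios between libraries as a factor on library size. This factor averaged 1.05 at 60 min, 0.862 at 410 min and 0.782 at 500 min. On the CPM scale the median log2 of the 500 over the 60 min mean was -0.08 for the 36, with 13 of 36 higher at 500 min. With TMM scaling it was 0.37, with 32 higher, with DESeq2 size factors 0.405, with 34 higher, and with the spike-ins that had no value over 500 it was 0.35, with 33 higher. The median of all tested genes, taken on log2 of the scaled value + 1, was -0.002 on the CPM scale. It moved from there by 0.43, 0.45 and 0.51 under these 3 scalings. The median of the 36 minus that of all tested genes was -0.06 with TMM, -0.04 with DESeq2 size factors and -0.16 with spike-ins, against -0.08 on the CPM scale. The sign of the median of the 36 changed with the scaling as that of the bulk of genes moved, and nothing particular to the 36 is read from it.

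**Figure D3:**
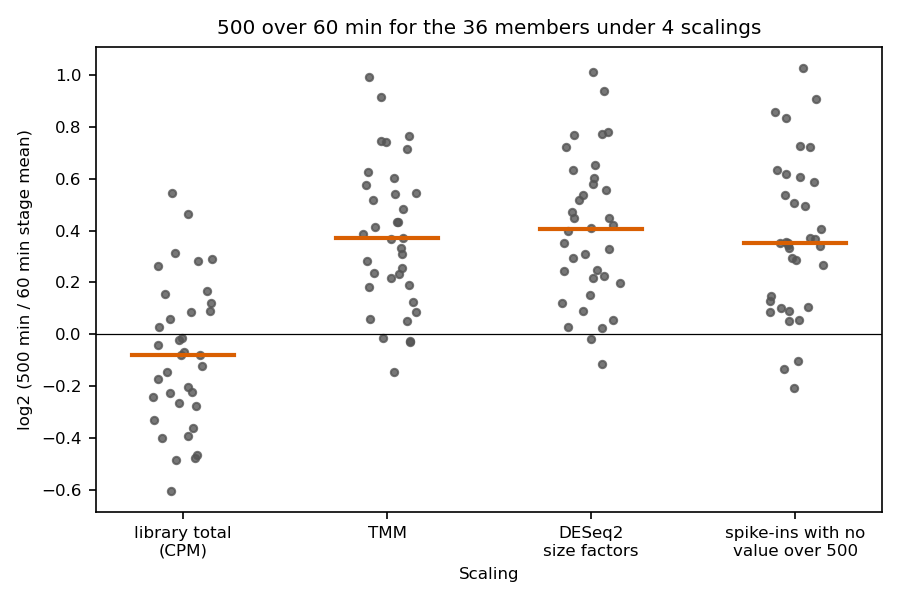
Log2 of the 500 min over the 60 min stage mean (y axis) for each of the 36 members (points) under 4 scalings (x axis), with the median as an orange bar. The median is -0.08 with library totals and 0.37, 0.405 and 0.35 with TMM, DESeq2 size factors and spike-ins.

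Applied to TMM-scaled values, the same limits gave 66 genes, 19 of them among the 36, and with DESeq2 size factors 57 genes, 10 of them among the 36. Within the limits under CPM, TMM and DESeq2 scaling alike were 9 genes, namely C14C10.5, cup-2, eif-1, epc-1, gei-17, mrps-11, ostf-4, tmed-4 and wdr-20. Among the mitochondrial members, cyc-2.1 had a ratio of 2.25 and isp-1 of 2.16 after TMM scaling, whereas epc-1 had 1.30 and eif-1 1.34. Counts of the 36 per spike-in count were 0.238 ± 0.116 at 500 min and 0.214 ± 0.0870 at 60 min, and the 3 libraries of 500 min ran from 0.110 to 0.335. The amount of spike-in per embryo is not stated, so no level per embryo was derived.

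A contrast between replicate series, taken within stages, did not use the differences between stage means that the rule limited. The limit on the count did act on single libraries, and depth differed between the series. Replicate 1 differed from replicates 2 and 3 within stages in 8 of the 36, 5 higher and 3 lower, by edgeR's quasi-likelihood test at an adjusted p of 0.05. Among all tested genes 18.6% differed, 7.84% higher and 10.8% lower, so the share among the 36 was near the background. The COPII gene sec-24.2 (chromosome IV, 12355600 to 12360792) had 301 to 440 CPM in replicate 1 (median 334), against 208 to 264 CPM (median 232) in replicate 2 and 197 to 310 CPM (median 256) in replicate 3. It was above both others in 8 of 8 stages, by log2 0.57 (SE 0.0903, edgeR adjusted p = 1.76e-05). The complex I gene ndua-7 (chromosome II, 13493181 to 13494600) had 134 to 253 CPM in replicate 1 (median 193), against 97.2 to 143 CPM (median 122) in replicate 2 and 98.0 to 185.5 CPM (median 123) in replicate 3. It too was above both in 8 of 8 stages, by log2 0.62 (SE 0.105, edgeR adjusted p = 4.36e-05).

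In the other direction, the Derlin gene cup-2 (chromosome I, 10398990 to 10400177) had 152 to 209 CPM in replicate 1 (median 163), against 213 to 305 CPM (median 275) in replicate 2 and 209 to 312.5 CPM (median 254) in replicate 3. Replicate 1 was below both others in 8 of 8 stages, by log2 -0.55 (SE 0.0965, edgeR adjusted p = 7.12e-05). These 3 genes passed under every alternative run on this contrast. The remaining 5 were nearer the threshold. Without replicate 2, lron-10 (log2 -0.40, edgeR adjusted p = 0.007) had an adjusted p of 0.225, ostf-4 (log2 0.33, adjusted p = 0.0187) had 0.201 and wdr-20 (log2 0.32, adjusted p = 0.0235) had 0.139. Without replicate 3, rab-14 (log2 -0.39, edgeR adjusted p = 0.012) had 0.0596. The gene dpy-23 (log2 0.33, edgeR adjusted p = 0.0292) had 0.0689 without replicate 2 and 0.104 without replicate 3. Among all tested genes 10.54% differed without replicate 2 and 16.34% without replicate 3, against 18.63% in the main fit.

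**Figure D4:**
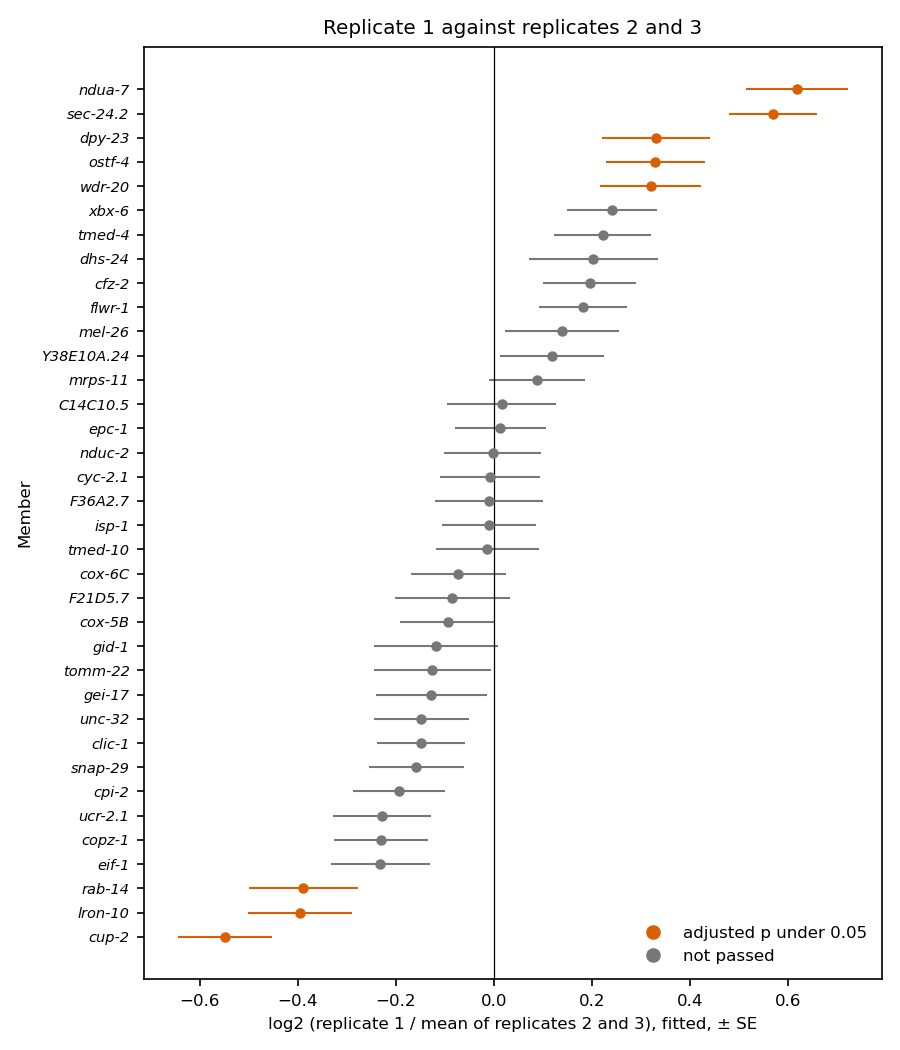
Fitted log2 difference of replicate 1 from the mean of replicates 2 and 3 (x axis, ± SE) for each of the 36 members (y axis), with those that passed an adjusted p of 0.05 in orange. The 5 higher genes reach 0.62 (ndua-7) and the 3 lower ones -0.55 (cup-2), and the other members lie between.

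Replicate 1 libraries were shallower, with 172620 to 569969 worm counts (median 311500), against 376161 to 867941 (median 473100) in replicate 2 and 214206 to 977908 (median 596800) in replicate 3. Their yolk protein gene sums ran from 0 to 1305 CPM, against 70.95 to 1095 CPM in replicate 2 and 82.0 to 390 CPM in replicate 3. The part of depth or of carried adult RNA in the difference was not tested. Without the 4 libraries of most yolk transcript, 4 members were higher and 2 lower, where 937 of 8919 tested genes (10.51%) differed in either direction. Between replicates 2 and 3, edgeR called 0 of the 36 and 0% of all tested genes. At an unadjusted p under 0.05 there were 1 member (lron-10) and 317 of all tested genes, and DESeq2 also called 0.

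The same measure was then read in libraries that had no part in a choice. The limits were applied to the means of 2 replicate series, and the ratio of highest to lowest level was taken over the 8 single libraries of the series left out. Chosen without replicate 1 were 38 genes, whose median ratio in replicate 1 was 1.88, against 3.14 for 487 genes that met the limits on level and count but not on ratio. Within 1.6 in the series left out were 8 of the 38 (21.1%) and 8 of the 487 (1.64%). Left out in turn, replicate 2 gave a median of 1.695 for 27 genes, against 2.55 for 440, with 25.9% and 4.545% within 1.6. Replicate 3 gave 1.93 for 34 genes, against 2.825 for 510, with 20.6% and 3.14% within 1.6. A ratio over single libraries holds more counting error than one over means. The labels do not say whether the series are separate collections, so the series left out may not be independent of the other 2. A ratio of at most 2 was found for 71.1%, 77.8% and 58.8% of the chosen genes, against 11.9%, 22.05% and 16.5% of the others.

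**Figure D5:**
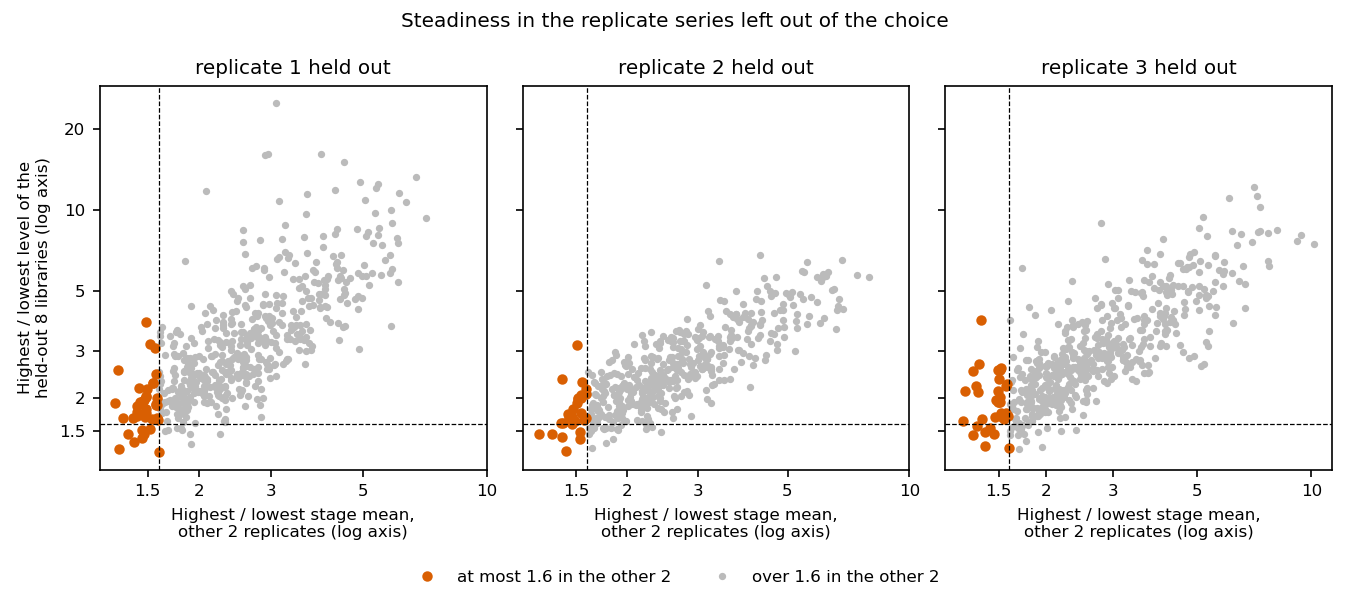
Ratio of highest to lowest level over the 8 libraries of the replicate series left out (y axis, log scale) against the ratio of stage means in the other 2 series (x axis, log scale), for genes that meet the limits on level and count, one panel per series left out. Genes with at most 1.6 in the other 2 series (orange) have medians of 1.88, 1.695 and 1.93 in the series left out, below the medians of the other genes (grey), and dashed lines mark 1.6.

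Chosen whichever series was left out were 10 of the 36, namely cfz-2, cox-6C, cpi-2, cup-2, eif-1, flwr-1, gei-17, sec-24.2, snap-29 and unc-32. Single-series ratios of the 36 had medians of 1.71 in replicate 1, 1.61 in replicate 2 and 1.70 in replicate 3. In sec-24.2 and cup-2 replicate 1 lay on one side of both other series at every stage, by amounts that differed between stages. For sec-24.2 replicates 1 and 3 read 301.2 and 300.7 CPM at 120 min but 378 and 197 CPM at 180 min. In sec-24.2 the ratio over the 8 libraries was 1.46 in replicate 1, 1.27 in replicate 2 and 1.57 in replicate 3, and in cup-2 it was 1.38, 1.43 and 1.50.

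All 36 members were protein-coding in the WBcel235 annotation, as were 99.55% of the 444 and 98.85% of all tested genes. Their coding sequences had a median of 218.5 codons, against 395 in the 444 genes that missed only the limit on the ratio and 393 in all tested genes. Up to 300 codons were found in 23 of the 36 (63.9%), against 37.6% of the 444 and 34.1% of all tested genes. The range ran from 35 codons in ostf-4 to 1908 in C14C10.5. Chromosome V held 10 of the 36 (27.8%), against 13.5% of the 444 and 15.8% of all tested genes. An upstream gene on the same strand within 1000 bp, as found in operons, was present for 10 (27.8%), against 30.9% of the 444. These are counts with no test.

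In 18 of the 36 the annotated gene overlaps another, in 12 of them a protein-coding one. The strand of counting is not given in the sources used here, so it is not known whether reads of overlapping genes were kept apart. The values of gid-1, gei-17, cpi-2, snap-29, sec-24.2, eif-1, epc-1, xbx-6, mrps-11, Y38E10A.24, wdr-20 and nduc-2, and of cup-2, unc-32, C14C10.5, dhs-24, clic-1 and cox-5B, which overlap genes of other types, are uncertain for that reason. The other 18, flwr-1 and cyc-2.1 among them, overlap no annotated gene.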

How the data were processed

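The deposited values were counts per gene with no normalization, made by the authors with HTSeq (named without version in the submitters' processing notes). Not given in the sources used here are aligner, genome build, annotation, strand and any counting of molecular identifiers. All 24 data columns were used and 0 left out. The 92 spike-in entries stayed out of library totals and tests. Of 20687 worm entries, 20083 matched the WBcel235 annotation by sequence name, and the other 604 held 0.423% of worm counts.

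CPM were computed from worm totals without further scaling, with no pseudocount except 1 in the scaling medians of all tested genes. A count of 0 allows up to 3 counts, or 3.07 to 17.4 CPM, and covers counting error only. Tests used edgeR 4.0.16 in R 4.3.3 with filterByExpr (minimum count 10, total 15; 8279 genes), TMM scaling, a robust quasi-likelihood fit to all 24 libraries and Benjamini-Hochberg adjustment over all tested genes at 0.05. The time course fit had stage as a factor, and the replicate contrasts came from a fit with stage and replicate number. The scripts were tested on simulated data. DESeq2 1.42.0 was an alternative.

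Members, role groups and gene lists were chosen with earlier results of these data known. By rule, any member may be named. Values in full went to the 8 lowest ratios, the 5 highest levels, the nearest genes at each limit, up to 2 members per list, the quantitative PCR standards, up to 3 members called per direction of a replicate contrast and the 3 lowest and 3 highest p of the time course.

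Of 24 gene lists, 703 of 736 listed symbols matched the annotation. The lists not described in the results each held 0 or 1 member. No sequences are printed, since none were given for these genes.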

Additional observations from a re-analysis of the deposited data

How the results depend on the processing

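The set of 36 depended on scaling and on the limits. It held 66 genes with TMM scaling, 57 with DESeq2 size factors and 5 with all spike-ins (19, 10 and 3 of the 36). Limits of 1.5 and 2 on the ratio gave 19 and 148 genes, 50 and 200 CPM gave 59 and 18, and no limit on the count gave 62. Without each replicate in turn it held 27 to 38 genes, 20 to 26 of them among the 36. A correction for identifier collisions gave 25, stage medians 37 (20 shared), spike-ins with no value over 500 gave 36 (9 shared), and leaving out 270 min replicate 3 or the 4 libraries with most vitellogenin gave 34 each.

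In the time course, 15 members passed, where 91.6% of all tested genes did (shares of all tested genes in brackets below). The count was 24 with DESeq2 size factors within edgeR (91.2%), 26 by DESeq2's likelihood ratio test (89.5%) and 10 with library size alone (92.9%). It was 9 with no filter on low counts (61.4%) and 7 to 17 without each replicate in turn (81.7 to 90.6%). With either spike-in scaling edgeR called 0 members, while 6013 and 5815 genes of all tested passed (72.6% and 70.2%). With the replicate number as a block the count was 24 (94.3%). Of 84 pairs of same-numbered libraries from different stages, 48 had a correlation of deviations over 0.1 (median 0.12, lowest -0.20). Of 168 pairs with different numbers, 16 did (median -0.08). In 17 of 24 libraries the best correlation was with their own number. Same-numbered libraries thus tended to deviate together, though not in every pair, and the main time course fit did not use the block.

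Of members higher in replicate 1 (5), 3 were called with library size alone, 2 with no filter, and 2 to 6 with libraries left out (2 without replicate 2, 4 without replicate 3, 6 without 270 min replicate 3). Those lower (3) numbered 2 without replicate 2 or 3 and 4 with library size alone. Of all tested genes, 18.63% differed in either direction in the main fit and 19.14% with library size alone. That share was 8.829% with no filter (1547 of 17522 genes), 10.54% without replicate 2, 16.34% without replicate 3 and 18.36% without 270 min replicate 3. Nothing particular to the members is therefore read from the lower counts with no filter or without replicate 2. No direction reversed. The causes were not tested. Depth limits single libraries most, where members had 12 to 488 counts.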

Other observations

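Genes above the limit on the count included steady ones as well. The 26 genes that met the limits on level and ratio but exceeded 500 counts in some library had mean levels of 453 CPM (sqd-1) to 1647 CPM (MTCE.26), and their values are compressed if counts have a ceiling near 1023. The lowest ratio was 1.21, for the mitochondrial genome gene MTCE.4, with 1177 CPM at 270 min and 972 CPM at 60 min. All 6 mitochondrial genome genes among the 26, MTCE.4, MTCE.26, MTCE.31, MTCE.34, ND6 and COX3, had their lowest stage mean at 60 min. Among nuclear genes, icd-2, the alpha subunit of the nascent polypeptide-associated complex, had a ratio of 1.26, and the complex IV gene cox-7C had 1.27. The Arf GTPase gene arf-1 had 1.33, the CCR4-NOT complex gene ntl-2 had 1.41, the Src kinase gene src-1 had 1.48 and the phosphatase catalytic subunit gene let-92 had 1.50. Levels between 1000 and 1400 CPM were held by genes of several kinds, including the ribosomal protein gene rpl-12 at 1039 CPM and the proton pump gene vha-2 at 1161 CPM. These genes were named after their values were seen, and their ratios carry no test.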
